A study of Cocos nucifera with 22 samples.

Results

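The 4 gene models of coconut (Cocos nucifera) annotated as desiccation, late embryogenesis abundant (LEA) or osmotic stress proteins were followed in salt-treated leaves of 2 varieties. They are PCC6-19, Lea5, ERD4 and PM19L, 4 of the 25247 genes listed in any library. They were found by locus tag in the study's published table of genes sorted by their change in the tall variety. All 4 were listed in all 22 libraries and passed the filter on low counts, as did 18840 genes in all. Because that table was built on the tall libraries, the changes of these genes in the tall variety, and every comparison that includes tall libraries, are not independent evidence. The table was not sorted by dwarf changes. The 4 genes were chosen with earlier results of these data known, so dwarf changes are not fully independent evidence either.

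The groups were leaves of Hainan Tall and of Aromatic Coconut, called tall and dwarf below, sampled at 0 h and then at 4 h, at 6 days and at 10 days. Seedlings were grown in a greenhouse and, from time 0, watered weekly with diluted Murashige and Skoog medium that held 200 mM NaCl. By that weekly schedule a further salt irrigation fell between the last 2 sampling times. Each group held 3 libraries, except the 2 groups at 10 days, which held 2 each. Leaves at 0 h served as controls for every later time and no unsalted leaves were sampled later, so salt, elapsed time and hour of day cannot be told apart. The replicates were 3 seedlings by the study's methods, and samples with the same number came from the same leaf, so a ratio per leaf is given where it helps.

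Plants that dry out or take up salt lose cell water, and they respond with small hydrophilic proteins that are thought to protect membranes and enzymes, and with compatible solutes. Dehydrins are one LEA family of this kind, defined by short lysine-rich segments, and they accumulate in drying seeds and in leaves under drought, cold and abscisic acid. Other proteins of the response sit in membranes, where some sense osmotic pressure.

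PCC6-19 (CN01_06G008750) was named after a desiccation-induced clone of the resurrection plant Craterostigma plantagineum, and its gene model carries the dehydrin domain. It lies on chromosome 6, positions 25207973 to 25209201 of assembly ASM812446v1, with a coding length of 426 bases. Lea5 (CN01_scaffold014710G000030) is a small LEA protein first named in cotton, whose Arabidopsis relative SAG21 is linked to oxidative stress. It lies on an unplaced scaffold, positions 90826 to 91778, with a coding length of 306 bases. ERD4 (CN01_06G020030, chromosome 6, positions 77032871 to 77036809) belongs to the CSC1 or OSCA family of membrane proteins, which in Arabidopsis includes calcium channels opened by osmotic stress. Its model was marked as a fragment, with a coding length of 1578 bases.

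PM19L (CN01_16G001410, chromosome 16, positions 20158455 to 20166929) was named for the AWPM-19 domain of plasma membrane proteins that abscisic acid induces in cereals. Its gene model of 1389 coding bases also carries both glutamine synthetase domains, which belong to an enzyme that fixes ammonium into glutamine. Its reads therefore cannot be assigned to the membrane protein rather than to the enzyme, and the name is used below only for the gene model. The expected counts of PM19L, PCC6-19 and ERD4 were whole numbers in 22 of 22 libraries and those of Lea5 in 21 of 22, so almost no read was divided with another gene.

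Total expected counts were 2977359 to 3445467 per library, and Spearman correlations between replicates were 0.928 to 0.966. The 33 leaf markers (chlorophyll a-b binding, photosystem and Rubisco small subunit genes) were all above 0 in every library and took 4.97% to 17.2% of the summed FPKM. They came from the same published table of selected genes, which names no markers of other tissues, so the tissue label was not tested. The libraries were run on 2 flow cells of 11 libraries each. All 10-day libraries were on flow cell AW and all dwarf 0 h libraries on flow cell AV. The flow cell term passed the test for 6 genes and for none of the 4.

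Expression is given as FPKM, a read count scaled by transcript length and by the reads sequenced, which allows levels of different genes to be compared per length. Over the 8 group means, Lea5 had 371 to 1173 FPKM, PM19L 149 to 622 FPKM, ERD4 69.2 to 178 FPKM and PCC6-19 26.9 to 149 FPKM. Lea5 was thus the most abundant of the 4 per length at 0 h, and PCC6-19 the least abundant. Changes are log2 fold changes of counts from edgeR's quasi-likelihood test with their standard error (SE), and a gene was called where the p-value, adjusted by Benjamini-Hochberg over all genes tested, was under 0.05.

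**Figure D1:**
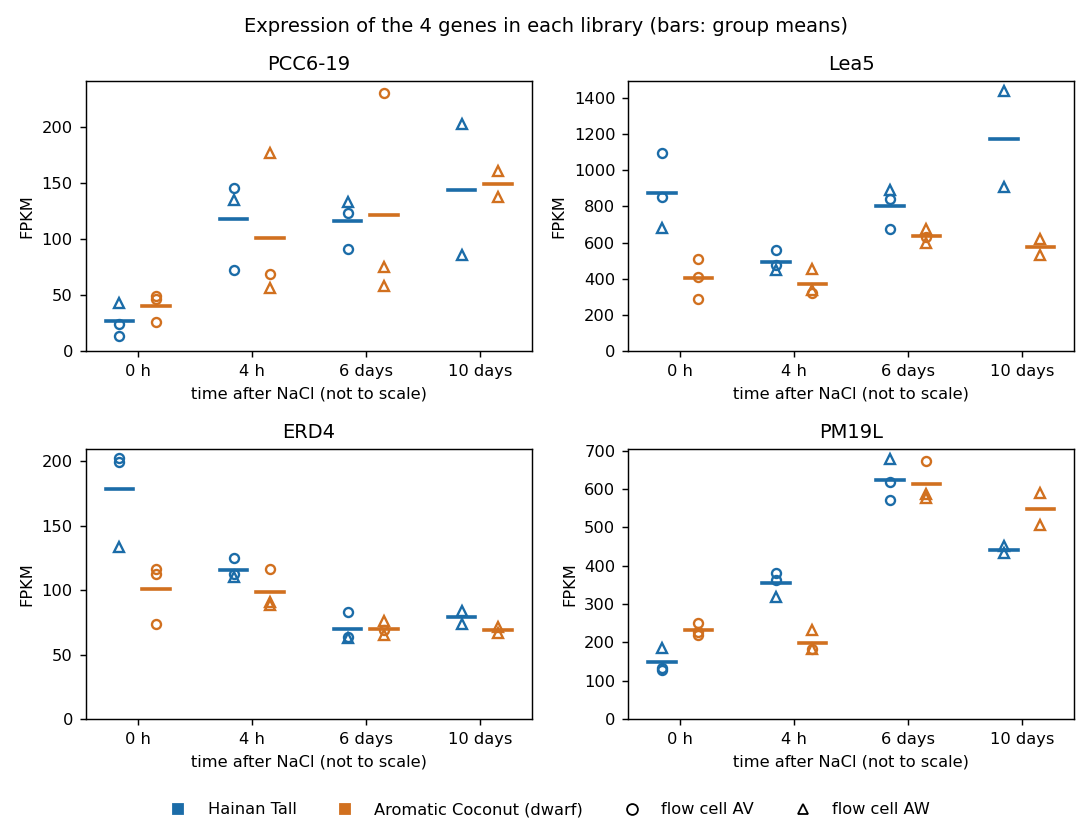
FPKM of PCC6-19, Lea5, ERD4 and PM19L in each of the 22 libraries by time after NaCl, with tall libraries left of dwarf libraries. Circles and triangles mark flow cells AV and AW, bars are group means. PCC6-19 is above its 0 h libraries at every later time in both varieties, and ERD4 is highest in the 3 tall 0 h libraries.

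In the tall variety at 4 h, 2 of the 4 genes rose (PCC6-19 and PM19L) and 2 fell (Lea5 and ERD4), where 20.6% of all genes tested were called, 10.9% higher and 9.73% lower. At 6 days PCC6-19 and PM19L were higher and ERD4 was lower, against 21.1% of all genes called, 11.2% higher and 9.89% lower. On the scale of log2(FPKM + 1), where the median of all genes fell, limma called 5.8% higher and 24.2% lower at 6 days in the tall. At 10 days the calls were on the same 3 genes in the same directions, against 8.08% of all genes called, 4.97% higher and 3.11% lower by edgeR and 2.61% higher and 7.6% lower by limma. In the dwarf variety at 4 h none of the 4 was called by edgeR, DESeq2 or limma, where edgeR called 13% of all genes, 5.81% higher and 7.23% lower. None had an unadjusted p under 0.05 in the main edgeR fit. That of PCC6-19 in the dwarf was 0.0652 by edgeR, 0.0465 by DESeq2 and 0.0839 by limma. At 6 days Lea5 and PM19L were higher, against 7.97% of all genes called and 4.36% called higher. At 10 days only PM19L of the 4 was called, and it was higher, against 8% of all genes called and 4.03% called higher. Limma gave dwarf shares of 2.08% (higher) and 12.2% (lower) for 6 days, and its shares for 10 days were 2.29% (higher) and 9.86% (lower). DESeq2 called 3 of the 4 at 6 days and 2 at 10 days in the dwarf, adding PCC6-19 at both times.

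PCC6-19, the dehydrin, was lowest in leaves at 0 h in both varieties. In tall leaves 1, 2 and 3 it had 24.5, 42.6 and 13.7 FPKM at 0 h, 72.0, 146 and 135 FPKM at 4 h, and 123, 91.0 and 133 FPKM at 6 days. At 10 days tall leaves 1 and 2 had 85.4 and 203 FPKM. No later tall library overlapped the tall 0 h libraries. In dwarf leaves 1, 2 and 3 it had 25.9, 49.1 and 46.7 FPKM at 0 h, 177, 56.5 and 69.0 FPKM at 4 h, and 230, 58.1 and 75.3 FPKM at 6 days. At 10 days dwarf leaves 1 and 2 had 161 and 137 FPKM. No later dwarf library overlapped the dwarf 0 h libraries either, with leaves 2 and 3 at 4 h and 6 days the closest to them. Libraries without overlap with 0 h were common, at 35.7%, 40.1% and 49.1% of all genes tested in the tall and 33.9%, 36.7% and 55.8% in the dwarf at the 3 later times. Of all genes tested, 0.228% were above 0 h without overlap at all 3 later times in both varieties.

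The leaves differed in how far PCC6-19 moved. The ratio of the later FPKM to that at 0 h in the same tall leaf was 2.94, 3.42 and 9.84 at 4 h, 5.04, 2.14 and 9.72 at 6 days, and 3.49 and 4.76 at 10 days. Tall leaf 3, with the lowest 0 h value, had the highest ratio at 4 h and 6 days. In the dwarf, leaf 1 stood apart with ratios of 6.84 at 4 h, 8.88 at 6 days and 6.22 at 10 days, while leaf 2 gave 1.15, 1.18 and 2.79. Dwarf leaf 3 gave 1.48 at 4 h and 1.61 at 6 days. PCC6-19 also rested on the fewest reads of the 4, with expected counts of 18 to 285 per library.

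In the tall variety the log2 fold change of PCC6-19 was 2.16 (SE 0.59, edgeR adjusted p = 0.0161) at 4 h, 2.43 (SE 0.59, edgeR adjusted p = 0.00863) at 6 days and 2.62 (SE 0.66, edgeR adjusted p = 0.0228) at 10 days. Within flow cell AV it had 72.0 and 146 FPKM in tall leaves at 4 h, against 24.5 and 13.7 FPKM at 0 h, and within flow cell AW 135 FPKM at 4 h, against 42.6 FPKM at 0 h. The 6-day call held when any 1 library was left out. The 4 h call was lost, with edgeR adjusted p of 0.066 and 0.076 without tall 0 h replicates 1 and 3 and 0.0593 and 0.0616 without tall 4 h replicates 2 and 3. The 10-day call was lost, with edgeR adjusted p of 0.0596 and 0.0739 without tall 0 h replicates 1 and 3 and 0.0587 and 0.185 without tall 10-day replicates 1 and 2.

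In the dwarf variety the log2 fold change of PCC6-19 was 1.23 (SE 0.63, edgeR adjusted p = 0.212) at 4 h, 1.86 (SE 0.58, edgeR adjusted p = 0.0575) at 6 days and 2.10 (SE 0.71, edgeR adjusted p = 0.0748) at 10 days. DESeq2 gave adjusted p of 0.0239 at 6 days and 0.0392 at 10 days, and edgeR without the flow cell term 0.029 and 0.0164. Without dwarf 6-day replicate 1, the highest library of all for this gene, the 6-day value was 0.32. It passed the test without dwarf 6-day replicates 2 or 3, with log2 fold changes of 2.18 and 2.14 and edgeR adjusted p of 0.0325 and 0.0312. The tall change exceeded the dwarf change by 0.93 (SE 0.87), 0.57 (SE 0.83) and 0.52 (SE 0.90) on the log2 scale at 4 h, at 6 days and at 10 days, none of which was called, so the varieties were not shown to differ.

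**Figure D2:**
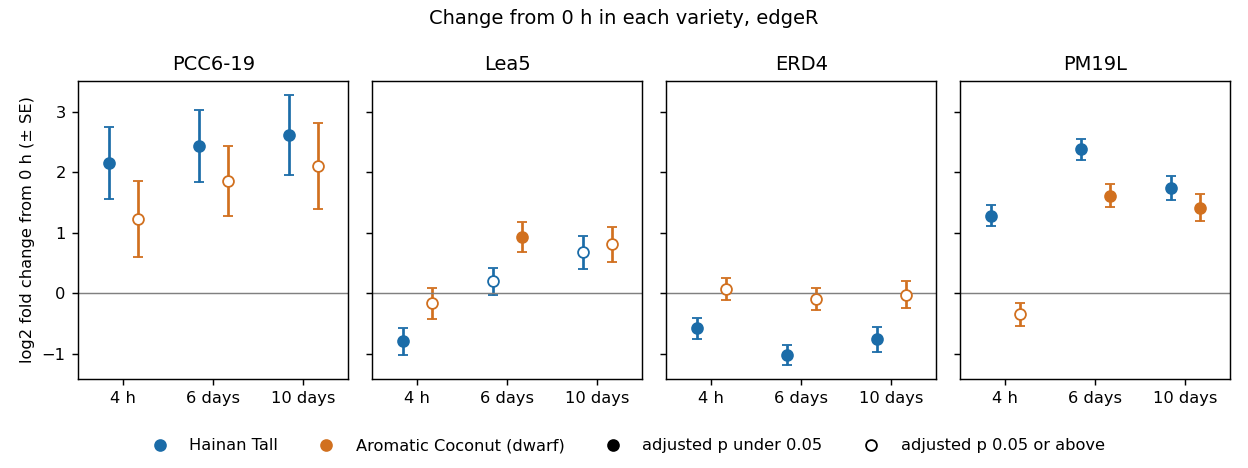
Log2 fold change from 0 h of the same variety (edgeR, error bars are SE) of PCC6-19, Lea5, ERD4 and PM19L at the 3 later times, with tall left of dwarf. Filled points have an adjusted p under 0.05. PM19L at 4 h is at 1.28 in the tall and at -0.34 in the dwarf, and ERD4 is below 0 at all 3 times in the tall but within 0.1 of 0 in the dwarf, in this fit with the flow cell as a term.

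PM19L gave the calls that held best of the 4. In tall leaves 1, 2 and 3 it had 128, 187 and 133 FPKM at 0 h, 362, 381 and 320 FPKM at 4 h, and 618, 572 and 677 FPKM at 6 days. At 10 days tall leaves 1 and 2 had 451 and 433 FPKM. Its tall libraries were therefore lowest at 0 h and highest at 6 days, with no overlap between any of the 4 times. In dwarf leaves 1, 2 and 3 it had 220, 228 and 251 FPKM at 0 h, 184, 232 and 182 FPKM at 4 h, and 673, 577 and 586 FPKM at 6 days. At 10 days dwarf leaves 1 and 2 had 507 and 590 FPKM. The dwarf libraries overlapped between 0 h and 4 h and were all higher at the 2 later times. Against 0 h alone, 35.7%, 40.1% and 49.1% of all genes tested had no overlap in the tall at the 3 later times. In the dwarf 36.7% and 55.8% had none at 6 days and 10 days. The share of genes with all 4 tall times apart was not computed, so that separation cannot be weighed against other genes.

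The log2 fold change of PM19L in the tall was 1.28 (SE 0.17, edgeR adjusted p = 0.000133) at 4 h, 2.38 (SE 0.18, edgeR adjusted p = 2.48e-06) at 6 days and 1.74 (SE 0.20, edgeR adjusted p = 0.000481) at 10 days. In the dwarf it was -0.34 (SE 0.19, edgeR adjusted p = 0.254) at 4 h, 1.62 (SE 0.19, edgeR adjusted p = 0.000663) at 6 days and 1.42 (SE 0.22, edgeR adjusted p = 0.00448) at 10 days. The 5 calls held under every alternative tried, with any 1 library left out and with a block for the leaf.

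At 4 h the tall change of PM19L exceeded the dwarf change by a log2 value of 1.62 (SE 0.26, adjusted p = 0.0365 by edgeR), in a comparison that called 0.0584% of all genes, 0.0372% higher in the tall. This difference reuses the tall libraries on which the published table was built, so it is not independent evidence. The ratio to 0 h in the same leaf was 2.82, 2.04 and 2.40 in tall leaves 1, 2 and 3, against 0.837, 1.02 and 0.727 in dwarf leaves 1, 2 and 3. Within flow cell AV, tall leaves had 362 and 381 FPKM at 4 h, against 128 and 133 FPKM at 0 h, and dwarf leaves 182 FPKM at 4 h, against 220, 228 and 251 FPKM at 0 h. DESeq2 and limma also called this difference.

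The size of that difference varied little between settings, and its call depended on them. With the leaf as a block the difference was 1.63 (edgeR adjusted p = 0.0747). Leaving out 1 library gave 1.498 to 1.804 and lost the call in 9 of 12 cases. The edgeR adjusted p was 0.13 and 0.107 without tall 0 h replicates 1 and 3, and 0.0789, 0.116 and 0.0851 without tall 4 h replicates 1, 2 and 3. It was 0.0825 and 0.105 without dwarf 0 h replicates 2 and 3, and 0.0652 and 0.169 without dwarf 4 h replicates 1 and 3. At 6 days and 10 days the tall change exceeded the dwarf change by 0.76 (SE 0.25) and 0.33 (SE 0.28), with edgeR adjusted p of 0.479 and 0.815.

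In levels, PM19L was 0.91 higher on the log2 scale in tall than in dwarf leaves at 4 h (SE 0.18, edgeR adjusted p = 0.022), where 1.06% of all genes were called, 0.717% higher in the tall. Without tall 4 h replicates 1 or 2 the edgeR adjusted p was 0.0738 and 0.0815, and without dwarf 4 h replicates 1 or 3 it was 0.11 and 0.135. At 0 h the tall value was lower by -0.72 (SE 0.18, edgeR adjusted p = 0.0789), and DESeq2 gave an adjusted p of 0.00692. Without tall 0 h replicate 2 that value was -0.88 (edgeR adjusted p = 0.0208). At 6 days the difference was 0.05 (SE 0.17) and at 10 days -0.39 (SE 0.21, edgeR adjusted p = 0.458).

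The share of the photosynthetic leaf markers, like the level of PM19L, was higher at 6 days and at 10 days than at 0 h in both varieties. The markers came from the same published table, so their changes in the tall are not independent evidence either. Their share of the summed FPKM in tall libraries was 8.52% to 10.3% at 0 h, 10.9% to 11.4% at 4 h, 14.3% to 17% at 6 days and 11.9% to 14.7% at 10 days. In dwarf libraries it was 8.9% to 10.6% at 0 h, 4.97% to 6.68% at 4 h, 13.4% to 17.2% at 6 days and 12.4% to 13.5% at 10 days. The 4 h share was higher in the tall and lower in the dwarf than at 0 h, without overlap, whereas PM19L in the dwarf overlapped between 0 h and 4 h. The part of the markers in the PM19L result was not tested. In bulk leaf RNA, fewer cells of a type and less RNA per cell cannot be told apart.

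**Figure D3:**
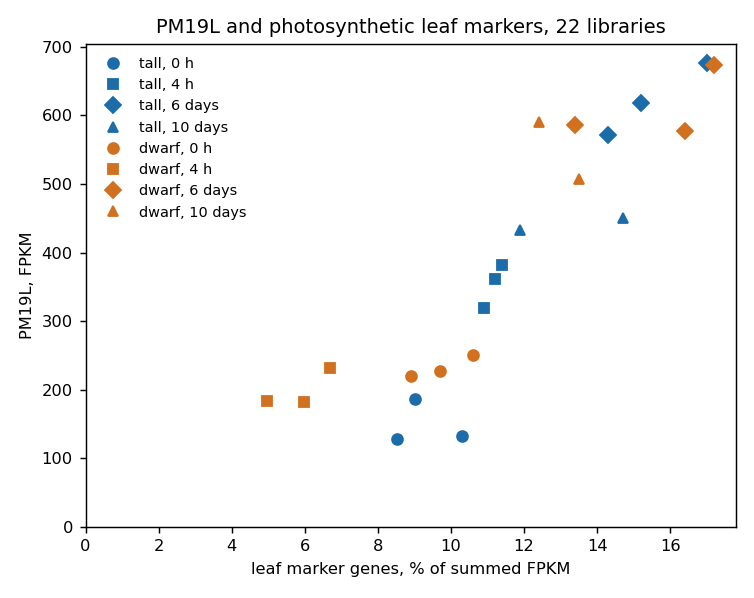
FPKM of PM19L against the share of summed FPKM taken by 33 photosynthetic leaf marker genes, in percent, 1 point per library (22 libraries, tall blue, dwarf orange, symbols for time). The dwarf 4 h libraries lie at the lowest marker shares, 4.97% to 6.68%, and the 6-day libraries of both varieties at the highest PM19L levels or close to them. Markers and PM19L came from the same published table.

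Likeness to each of the 4 genes was read only among 645 genes with a product name in the part of the published table at hand. Those most like PM19L over the 22 libraries were chloroplast genes. The membrane-associated 30 kDa protein (CN01_scaffold006534G000090) had a Pearson r of 0.978, PGR5-like protein 1A (CN01_07G008720), a protein of cyclic electron flow, 0.970, and photosystem I subunit VI (CN01_scaffold035709G000030) 0.967. They ranked 1, 2 and 3 among all 18839 other genes. The correlations are descriptions over libraries that share groups and times. The PM19L model also carries domains of glutamine synthetase, and the only listed gene of that enzyme (nodule isozyme, CN01_scaffold018934G000010) had an r of 0.725 with PM19L. Whether those domains belong to this isozyme or to another was not tested. The counts of the nodule isozyme gene were whole numbers in 0 of 22 libraries, so its reads were divided with other genes. That gene changed by 0.05 (SE 0.24), 0.77 (SE 0.24, edgeR adjusted p = 0.0309) and 0.43 on the log2 scale in the tall at 4 h, at 6 days and at 10 days, and by -0.57, 0.34 and 0.69 in the dwarf. Only its 6-day change in the tall was called, and that call was lost with limma (0.45, adjusted p = 0.139) and with edgeR adjusted p of 0.128 and 0.0702 without tall 0 h replicates 1 and 2 and 0.202 without tall 6-day replicate 3.

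ERD4, of the family of osmotically gated channels, fell in the tall variety, and no change of it was called in the dwarf. In tall leaves 1, 2 and 3 it had 199, 134 and 203 FPKM at 0 h, 125, 112 and 110 FPKM at 4 h, and 83.5, 63.6 and 63.1 FPKM at 6 days. At 10 days tall leaves 1 and 2 had 74.0 and 84.2 FPKM. Every later tall library was below the tall 0 h libraries. In dwarf leaves 1, 2 and 3 it had 73.9, 113 and 116 FPKM at 0 h, 88.9, 91.3 and 116 FPKM at 4 h, and 69.4, 65.3 and 75.8 FPKM at 6 days. At 10 days dwarf leaves 1 and 2 had 71.4 and 67.0 FPKM. The dwarf libraries overlapped with 0 h at 4 h and 6 days, and lay just below at 10 days.

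In the tall the log2 fold change of ERD4 was -0.58 (SE 0.17, edgeR adjusted p = 0.0214) at 4 h, -1.02 (SE 0.17, edgeR adjusted p = 0.000783) at 6 days and -0.75 (SE 0.21, edgeR adjusted p = 0.0325) at 10 days. The 6-day call held with any 1 library left out. The 4 h call was lost, with edgeR adjusted p of 0.072 and 0.0798 without tall 0 h replicates 1 and 3 and 0.0527 and 0.0904 without tall 4 h replicates 1 and 2. With the leaf as a block the 10-day value was -0.66 (edgeR adjusted p = 0.0738). The 10-day call was also lost, with edgeR adjusted p of 0.065 and 0.0798 without tall 0 h replicates 1 and 3 and 0.215 and 0.0989 without tall 10-day replicates 1 and 2.

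In the dwarf the log2 fold change of ERD4 was 0.07 (SE 0.18), -0.09 (SE 0.19) and -0.02 (SE 0.22) at 4 h, at 6 days and at 10 days, with edgeR adjusted p of 0.836, 0.814 and 0.972. Without the flow cell term they were -0.07, -0.24 and -0.24, and in the dwarf all 0 h libraries were on one flow cell and all 10-day libraries on the other. On the FPKM scale the median of all genes also moved, by -0.27 at 6 days and -0.28 at 10 days in the dwarf and by -0.31 and -0.23 in the tall on the log2(FPKM + 1) scale. The ERD4 change on that scale in the dwarf was -0.33 at 6 days and -0.26 at 10 days, close to those medians, while in the tall at 6 days it was -1.32.

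At 0 h ERD4 was 0.84 higher on the log2 scale in tall than in dwarf leaves (SE 0.17, edgeR adjusted p = 0.0418), one of 2 calls among the 4 genes where 0.409% of all genes were called, 0.202% higher in the tall. Without the flow cell term the difference was 0.78 (edgeR adjusted p = 0.0835). The edgeR adjusted p was 0.233 and 0.117 without tall 0 h replicates 1 and 3, and 0.0682, 0.0972 and 0.0601 without dwarf 0 h replicates 1, 2 and 3. At 4 h, at 6 days and at 10 days the difference was 0.19 (SE 0.17), -0.08 (SE 0.17) and 0.11 (SE 0.21), with edgeR adjusted p of 0.658, 0.943 and 0.875. The tall change minus the dwarf change was -0.65 (SE 0.25), -0.93 (SE 0.25) and -0.73 (SE 0.27), with edgeR adjusted p of 0.285, 0.458 and 0.62, so the fall in the tall was not shown to differ from the dwarf.

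Lea5, the small LEA protein, fell in the tall at 4 h and was higher in the dwarf at 6 days. In tall leaves 1, 2 and 3 it had 1093, 681 and 853 FPKM at 0 h, 557, 477 and 450 FPKM at 4 h, and 843, 673 and 892 FPKM at 6 days. At 10 days tall leaves 1 and 2 had 910 and 1435 FPKM. The tall libraries at 4 h lay below all those at 0 h, and the 2 later times overlapped with 0 h. In dwarf leaves 1, 2 and 3 it had 291, 512 and 411 FPKM at 0 h, 339, 453 and 321 FPKM at 4 h, and 634, 599 and 677 FPKM at 6 days. At 10 days dwarf leaves 1 and 2 had 535 and 621 FPKM. The dwarf libraries overlapped between 0 h and 4 h and lay above 0 h at both later times.

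In the tall the log2 fold change of Lea5 was -0.79 (SE 0.23, edgeR adjusted p = 0.0194) at 4 h, 0.20 (SE 0.22, edgeR adjusted p = 0.556) at 6 days and 0.68 (SE 0.27, edgeR adjusted p = 0.13) at 10 days. The 4 h call was lost, with edgeR adjusted p of 0.107 without tall 0 h replicate 1 and 0.0681 and 0.0863 without tall 4 h replicates 2 and 3. In the dwarf it was -0.16 (SE 0.25, edgeR adjusted p = 0.719) at 4 h, 0.94 (SE 0.25, edgeR adjusted p = 0.0284) at 6 days and 0.81 (SE 0.29, edgeR adjusted p = 0.091) at 10 days. The 6-day call was lost, with edgeR adjusted p of 0.0978 and 0.0662 without dwarf 0 h replicates 1 and 3 and 0.161 without dwarf 6-day replicate 1, and with limma on log2(FPKM + 1) the value was 0.71 (adjusted p = 0.0719). The 10-day value passed without the flow cell term (edgeR adjusted p = 0.0262) and without dwarf 0 h replicate 2 (1.03, edgeR adjusted p = 0.038).

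Lea5 was the other gene of the 4 called between the varieties at 0 h, 1.07 higher on the log2 scale in tall than in dwarf leaves (SE 0.23, edgeR adjusted p = 0.0489), without overlap of the libraries. Tall and dwarf libraries did not overlap for 16.6%, 21.7%, 11.6% and 46.9% of all genes tested at 0 h, at 4 h, at 6 days and at 10 days. Without the flow cell term the edgeR adjusted p was 0.0527. It was 0.318 and 0.106 without tall 0 h replicates 1 and 3, and 0.0821, 0.0746 and 0.124 without dwarf 0 h replicates 1, 2 and 3. At 4 h, at 6 days and at 10 days the difference was 0.44 (SE 0.23), 0.34 (SE 0.23) and 0.94 (SE 0.28), with edgeR adjusted p of 0.388, 0.76 and 0.176. The tall change minus the dwarf change was -0.63 (SE 0.33), -0.74 (SE 0.33) and -0.14 (SE 0.36), with edgeR adjusted p of 0.466, 0.534 and 0.957.

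In tall against dwarf leaves at 6 days and at 10 days edgeR called none of the 4 genes, where it called 0.0265% and 0.0743% of all genes. At 6 days none of the 4 had an unadjusted p under 0.05, and at 10 days 1 did, as did 7.79% and 12.4% of all genes. Higher and lower calls among all genes numbered 4 and 1 at 6 days by edgeR and 13 and 14 by DESeq2, and 12 and 2 at 10 days by edgeR, 154 and 70 by DESeq2 and 5 and 2 by limma. The tall change minus the dwarf change was called for none of the 4 at 6 days or 10 days, and for 0% of all genes, with 3 and 1 of the 4 at an unadjusted p under 0.05, as had 9.13% and 7.33% of all genes. DESeq2 and limma also called none of the 4 in these 4 comparisons. PCC6-19 differed between tall and dwarf leaves by -0.66 (SE 0.64), 0.27 (SE 0.55), -0.09 (SE 0.53) and -0.14 (SE 0.64) at 0 h, at 4 h, at 6 days and at 10 days, and by 1.28 at 6 days without dwarf 6-day replicate 1.

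The order of the group means by FPKM differed from gene to gene. For PCC6-19 the 2 groups at 0 h were lowest and overlapped each other, and the 6 later groups each overlapped the next in the order. For Lea5 the lowest mean was dwarf at 4 h (371 ± 71.3 FPKM, SD, n = 3) and the highest tall at 10 days (1173 ± 372 FPKM, SD, n = 2), and all neighbours overlapped. For ERD4 tall at 0 h stood alone at the top (178 ± 39.0 FPKM, SD, n = 3), followed by tall at 4 h (116 ± 7.76 FPKM, SD, n = 3). For PM19L the lowest was tall at 0 h (149 ± 32.3 FPKM, SD, n = 3) and the highest tall at 6 days (622 ± 52.6 FPKM, SD, n = 3).

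Over the 22 libraries, PCC6-19 and PM19L had a Pearson r of 0.745 and a Spearman rho of 0.684. ERD4 had an r of -0.682 with PM19L and -0.586 with PCC6-19, and Lea5 an r of 0.487 with PM19L, 0.258 with PCC6-19 and 0.074 with ERD4. These are descriptions over libraries that share groups and depth. Among the same 645 genes, those most like PCC6-19 were a chloroplast Clp protease subunit (CN01_15G005760, r = 0.889), the NDH subunit PNSB5 (CN01_03G001760, r = 0.871) and the AT-hook protein 14 (CN01_scaffold009229G000010, r = 0.850), which ranked 1, 6 and 19 among all 18839 other genes. On log2(FPKM + 1) the r of these 3 genes was 0.699, 0.845 and 0.803, so their order depended on the scale. Those most like Lea5 were a RAB GTPase (CN01_09G005890, r = 0.877), the ubiquitin-conjugating enzyme E2 10 (CN01_03G012740, r = 0.858) and a CBS domain protein (CN01_09G008820, r = 0.850), ranked 8, 19 and 28. Those most like ERD4 were an elongation factor 1-beta-like gene (CN01_16G002760, r = 0.790), an enzyme of cell wall sugar synthesis (CN01_scaffold000732G000090, r = 0.764) and thioredoxin H1 (CN01_06G012990, r = 0.754), ranked 9, 28 and 40.

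A set of 17 related genes was taken from the part of the same published table at hand, so the lists do not hold every member of a family, and their changes in the tall are not independent evidence either. Of 24 calls on the list genes that the naming rule allowed and on glutamine synthetase, 13 held under every alternative and 11 were lost under some. A call below that is printed with its change and was lost is given with its adjusted p without each library that decided it. The other lost calls are in the list counts and the plot of related genes, where they are not marked as lost unless stated. The list of LEA and dehydrin families was drawn by product name and curated family. Besides Lea14-A and dehydrin COR410 it held NDR1/HIN1-like genes and a conserved hypothetical gene. Of its 6 genes, 0 rose and 1 fell in the tall at 4 h, where 10.9% and 9.73% of all genes did. At 6 days 1 rose and 2 fell, where 11.2% and 9.89% of all genes did, and none was called at 10 days. In the dwarf 1 rose and 1 fell at 4 h, where 5.81% and 7.23% of all genes did, and none was called later. The gene that rose in the dwarf was NDR1/HIN1-like (CN01_02G017050), and its call was lost in 2 of 11 alternatives. Lea14-A (CN01_03G012350), an LEA protein, fell by 1.72 in the tall at 4 h on the log2 scale and fell by 1.59 in the dwarf (edgeR adjusted p = 0.00642 and 0.0235). The tall call did not survive leaving out the first tall library of 0 h (-1.22, edgeR adjusted p = 0.0512), and the dwarf call was lost, with edgeR adjusted p of 0.124 without dwarf 0 h replicate 2 and 0.0619 and 0.128 without dwarf 4 h replicates 2 and 3. Dehydrin COR410 (CN01_07G014820), a relative of PCC6-19, rose by 1.16 in the tall at 6 days (edgeR adjusted p = 0.00534). The medians of the list were -0.15, -0.49 and -0.91 in the tall and 0.66, 0.14 and -1.20 in the dwarf at 4 h, at 6 days and at 10 days, where the medians of all genes lay between -0.05 and 0.00. The low medians at 10 days did not come from the genes named LEA or dehydrin. Lea14-A and COR410 had higher mean FPKM at 10 days than at 0 h in both varieties. The NDR1/HIN1-like genes and the hypothetical gene had lower means.

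Of 5 dehydration and salt responsive genes, 3 rose in the tall at 4 h and 1 at 6 days, where 10.9% and 11.2% of all genes did. At 10 days 1 rose and 1 fell, where 4.97% and 3.11% of all genes did. In the dwarf 1 rose at 4 h and 2 rose at 6 days, where 5.81% and 4.36% of all genes did, and none was called at 10 days. ERD15 (CN01_16G002530), an early dehydration-responsive regulator, rose by 1.47 in both varieties at 4 h (edgeR adjusted p = 0.00122 in the tall and 0.00339 in the dwarf). The chloroplast thioredoxin CDSP32 had 2 genes, whose counts were fractional in all 22 libraries, so reads were divided among copies. CN01_07G014990 rose by 1.32 and 1.31 in the tall at 4 h and 6 days and by 1.19 in the dwarf at 6 days (edgeR adjusted p = 0.00191, 0.00211 and 0.0139). The dwarf call was lost, with edgeR adjusted p of 0.0553 without dwarf 0 h replicate 1 and 0.124 without dwarf 6-day replicate 1. CN01_contig69145767G000010 rose by 1.85 in the tall at 4 h (edgeR adjusted p = 0.000386). It was also the gene that fell in the tall at 10 days, with mean levels of 119 FPKM at 0 h and 50.3 FPKM at 10 days. The gene that rose then was DEHYDRATION-INDUCED 19 (CN01_scaffold011959G000040). Each of these 10-day calls was lost in 6 of 10 alternatives. The list medians were 1.32, 0.22 and -0.03 in the tall and 0.23, 0.41 and 0.43 in the dwarf.

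Of 6 genes of inositol and galactinol metabolism, which feeds compatible solutes, 4 fell in the tall and 5 in the dwarf at 4 h, where 9.73% and 7.23% of all genes did. In the tall 3 rose at 6 days, where 11.2% of all genes did, and none was called at 10 days, and in the dwarf none was called at 6 or 10 days. Among these 3 calls, that of CN01_03G006570 was lost in 5 of 11 alternatives and that of CN01_14G004830 in 3 of 11. Inositol-3-phosphate synthase, the first enzyme of inositol synthesis, fell at 4 h in both genes. CN01_03G006570 changed by -2.68 in the tall and -2.75 in the dwarf, and CN01_02G007310 by -1.56 and -1.88 (edgeR adjusted p = 8.72e-05, 0.000167, 0.00179 and 0.00142). Galactinol synthase 1 (CN01_14G004830), the first step toward raffinose sugars, fell by 3.82 in the dwarf at 4 h (edgeR adjusted p = 0.00366). Its 0 h libraries spanned 337 to 2324 FPKM in the tall and 402 to 3893 FPKM in the dwarf. Inositol transporter 1 (CN01_scaffold015887G000040) fell by 2.17 in the tall at 4 h and fell by 1.45 in the dwarf (edgeR adjusted p = 7.3e-06 and 0.000751). The other listed gene of that name did not fall in the dwarf, with mean levels of 187 FPKM at 0 h and 217 FPKM at 4 h. In the tall its means were 216 and 110 FPKM. The counts of these genes were also mostly fractional. The list medians were -1.87, 0.80 and 0.38 in the tall and -2.32, 0.05 and 0.36 in the dwarf.

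**Figure D4:**
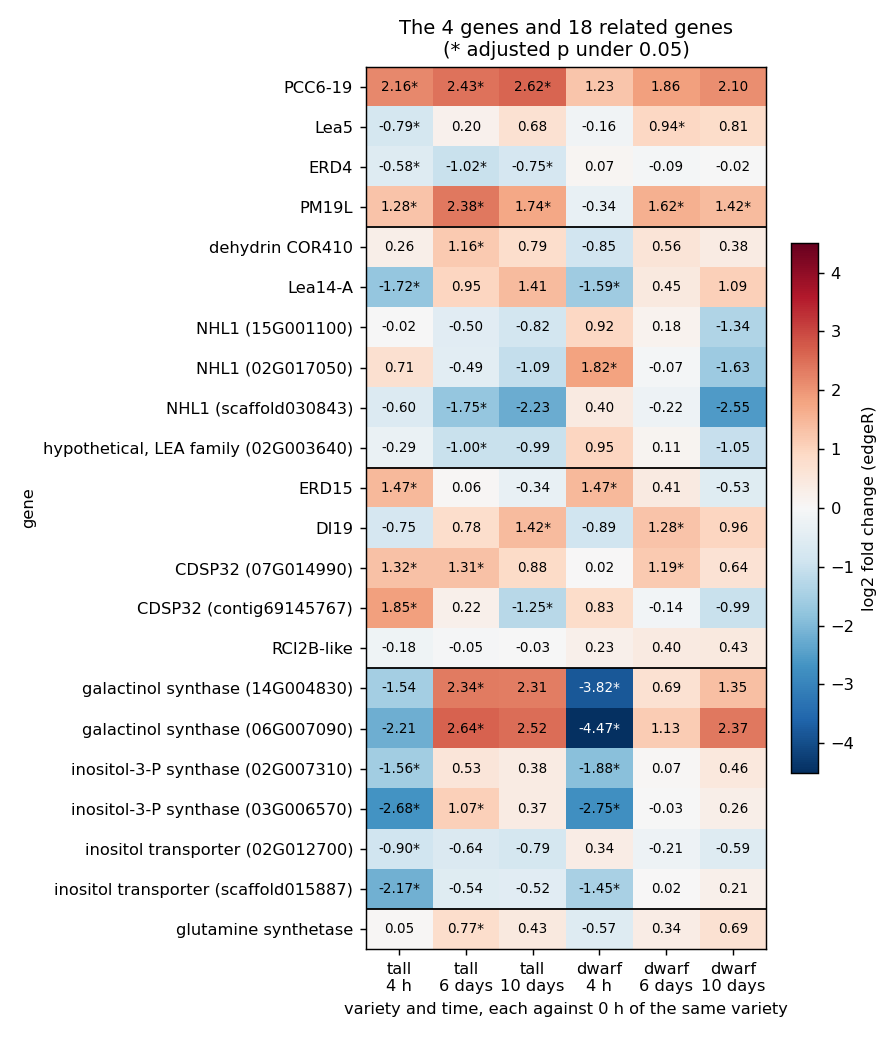
Log2 fold change from 0 h (edgeR) of the 4 genes, 17 related genes in 3 lists and glutamine synthetase, for tall and dwarf at the 3 later times, with an asterisk at an adjusted p under 0.05. Asterisks do not show whether a call held under the alternatives. PCC6-19 is above 0 in all 6 columns, whereas the inositol and galactinol genes are mostly below 0 at 4 h, with galactinol synthase CN01_14G004830 at -3.82 in the dwarf.

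None of the 17 genes was called by edgeR between tall and dwarf leaves at any time. At an unadjusted p under 0.05 there were 4 at 0 h, 4 at 4 h, 0 at 6 days and 5 at 10 days, where 17.1%, 15.2%, 7.79% and 12.4% of all genes had one. DESeq2 called 1, 2, 0 and 0 of the 17, and 2.1%, 3.23%, 0.143% and 1.19% of all genes. For the tall change minus the dwarf change edgeR called 0 of 17 at each time, with 7, 2 and 1 at an unadjusted p under 0.05 at 4 h, at 6 days and at 10 days, where 12.2%, 9.13% and 7.33% of all genes had one. DESeq2 called 2 of them and 1.38% of all genes at 4 h and none of them later, and limma called none in any of these 7 comparisons.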

How the data were processed

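Leaf RNA of 2 coconut varieties was sequenced as single 50-base reads in 22 libraries, grouped by the variety and time in the labels. The authors aligned reads to a gene reference with Bowtie and ran RSEM, which gave the deposited expected counts and FPKM values. The labels also name BWA, with versions not given in the sources used here. FPKM values, as deposited, are scaled by gene length and read number. Coding lengths were all multiples of 3, so UTRs were not counted. A gene missing from a table was taken as 0. Gene positions were read from a RefSeq table of assembly ASM812446v1, where 2000 of 2000 checked locus tags lay at the same positions.

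Expected counts were rounded, scaled by TMM and filtered by filterByExpr over 8 groups. The quasi-likelihood test of edgeR 4.0.16 (R 4.3.3) was fitted with the 8 groups and the flow cell, with 13 residual degrees of freedom and a common biological coefficient of variation of 24%. The 13 comparisons were each later time against 0 h, tall against dwarf at each time, and the tall change minus the dwarf change. Each SE equals the size of the log2 fold change over the root of the F statistic. The study's own test, NOISeq, gives no p-value and was not used. Alternatives were DESeq2 1.42.0, limma 3.58.1 on log2(FPKM + 1), no flow cell, a block for the leaf, no filter on low counts, each library left out, and TMM-scaled CPM for levels.

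On data simulated for tall 4 h against 0 h (18309 genes), the test recovered 30 of 100 genes changed 2-fold and 85 of 100 changed 4-fold, with 7 false among 122 calls. The simulated counts had the common dispersion for every gene and no flow cell or leaf effect, so these rates may not hold for the real libraries. The methods name 3 seedlings as replicates and state that samples of the same number were taken from 1 leaf, which makes the numbers a pairing. Residuals of same-numbered samples correlated by 0.23 on average in the tall (0.07 to 0.45) and 0.10 in the dwarf (-0.29 to 0.42), against -0.12 and -0.05 for other pairs. Residuals were taken from group means, which largely fixes the average of other pairs from that of same-numbered pairs, with opposite sign. The other pairs are therefore no separate comparison. Named genes were the 4 genes, at most 4 called genes per list by smallest adjusted p, and the 3 named genes most correlated with each of the 4 in log2 CPM. The members and lists were chosen with earlier results of these data known.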

Additional observations from a re-analysis of the deposited data

Results flagged for a closer look

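The change of PM19L from 0 h to 4 h differed between the varieties by a log2 value of 1.62 (SE 0.26, adjusted p = 0.0365 by edgeR), with 1.28 in the tall and -0.34 in the dwarf. Its FPKM in tall leaves 1, 2 and 3 at 4 h was 2.82, 2.04 and 2.40 times that at 0 h, against 0.837, 1.02 and 0.727 times in dwarf leaves. The call was lost with the leaf as a block (adjusted p = 0.0747) and in 9 of 12 cases with 1 library left out, and the tall libraries had served to build the table the gene came from. No group held the 4 samples that a test for a single distant library needs.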

How the results depend on the processing

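Depth was about even, and groups of 2 or 3 set the precision. The filter on low counts changed no call of the 4 genes, and the leaf block, which can be fitted only for comparisons within a variety and for the difference of changes, changed no other call of theirs than the 2 given here. With the replicate block, ERD4 in the tall at 10 days was -0.66 (adjusted p = 0.0738), the PM19L difference of changes at 4 h was 1.63 (adjusted p = 0.0747), and ERD4 in the dwarf at 10 days turned to 0.095, as it did to 0.009 with DESeq2. Without the flow cell, ERD4 in the dwarf at 4 h turned to -0.066 and was -0.24 at 6 days and at 10 days, tall against dwarf at 0 h was 1.07 for Lea5 and 0.78 for ERD4 and no longer passed, and in the dwarf PCC6-19 (1.89 at 6 days, 2.18 at 10 days) and Lea5 (0.81 at 10 days) passed. With DESeq2, PCC6-19 passed in the dwarf (1.87 at 6 days, 2.07 at 10 days) and PM19L in tall against dwarf at 0 h (-0.70). With limma on log2(FPKM + 1), Lea5 in the tall at 6 days turned to -0.11, PCC6-19 in tall against dwarf at 6 days to 0.23, and Lea5 in the dwarf at 6 days (0.71) no longer passed. The cause of these shifts was not tested.

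With 1 library left out, the called changes that lost the test in some cases ranged from 1.83 to 2.72 (PCC6-19, tall 4 h), 1.89 to 3.31 (PCC6-19, tall 10 days), -0.96 to -0.62 (Lea5, tall 4 h), -0.70 to -0.51 (ERD4, tall 4 h), -0.93 to -0.68 (ERD4, tall 10 days), 0.74 to 1.16 (Lea5, dwarf 6 days) and 1.498 to 1.804 (PM19L, difference of changes at 4 h). For tall against dwarf they ranged from 0.88 to 1.29 (Lea5, 0 h), 0.655 to 0.957 (ERD4, 0 h) and 0.83 to 1.06 (PM19L, 4 h). Values that passed in some cases ranged from 0.32 to 2.18 (PCC6-19, dwarf 6 days), 0.62 to 1.03 (Lea5, dwarf 10 days) and -0.88 to -0.60 (PM19L, tall against dwarf at 0 h). Uncalled values that changed sign ranged from -0.361 to 0.052 (Lea5, dwarf 4 h), -0.12 to 0.19, -0.279 to 0.023 and -0.21 to 0.094 (ERD4, dwarf at 4 h, at 6 days and at 10 days). In tall against dwarf these were -0.04 to 0.94, -0.46 to 1.28 and -0.87 to 0.34 (PCC6-19 at 4 h, at 6 days and at 10 days), -0.166 to 0.027 (ERD4, 6 days) and -0.068 to 0.289 (PM19L, 6 days). The differences of changes at 10 days were -0.208 to 1.00045 (PCC6-19) and -0.48 to 0.12 (Lea5), and CN01_scaffold018934G000010 in the tall at 4 h gave -0.071 to 0.197, with -0.037 without tall 4 h replicate 2.

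The number of genes called moved more. Without the flow cell it was 2657 against 1522 (tall 10 days), 2773 against 1502 (dwarf 6 days), 3514 against 1507 (dwarf 10 days) and 40 against 77 (tall against dwarf at 0 h). With limma it was 2691 (dwarf 6 days), 2288 (dwarf 10 days) and 7 against 14 (tall against dwarf at 10 days). With DESeq2, tall against dwarf gave 396 against 77 at 0 h, 609 against 199 at 4 h, 27 against 5 at 6 days and 224 against 14 at 10 days, and the difference of changes 260 against 11 at 4 h and 14 against 0 at 6 days. The replicate block gave 1 against 11 at 4 h. With 1 library left out, the counts were 2133 to 3482, 2226 to 3934 and 109 to 1618 in the tall at 4 h, at 6 days and at 10 days, and 968 to 2844, 123 to 1808 and 81 to 1944 in the dwarf. For tall against dwarf they were 2 to 354, 5 to 315, 0 to 3 and 0 to 1 at 0 h, at 4 h, at 6 days and at 10 days, and for the difference of changes 0 to 212, 0 to 1 and 0 to 1. Of 24 calls on list genes and glutamine synthetase, 11 were lost under some alternative, 34 times with a library left out and 7 times under other settings. List counts moved by over 1.5 times in 42 of 204 cases with a library left out and in 31 of 180 others. The correlations with other genes were also computed on log2(FPKM + 1), chosen after seeing the data, where 5 of 12 moved by 0.05 or more.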
